A study of Mus musculus with 115 samples.

Results

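The Cyp2 family of cytochromes P450 was described here without its Cyp2b subfamily. Members were all probes whose array symbol begins with Cyp2 followed by a, c, d, e, f, g, j, r, s or u and a number. This gave 27 genes with 39 probes, of 18120 genes and 25697 probes on the array. By subfamily these were 9 Cyp2c genes, 5 Cyp2d, 5 Cyp2j, 2 Cyp2a and 1 each of Cyp2e, Cyp2f, Cyp2g, Cyp2r, Cyp2s and Cyp2u. A probe was tested in a tissue where it was detected (detection p under 0.01) on at least 5 liver or 3 adipose arrays, the size of the smallest group. In liver 22 of the 27 genes passed (31 probes), and in inguinal adipose tissue 13 genes (18 probes). On all arrays of a tissue, 12 genes were detected in liver and 4 in adipose tissue, which were Cyp2d22, Cyp2e1, Cyp2f2 and Cyp2j9. Not tested in liver were Cyp2j5, Cyp2j6, Cyp2j11, Cyp2j13 and Cyp2s1. Not tested in adipose tissue were Cyp2c29, Cyp2c38, Cyp2c39, Cyp2c40, Cyp2c55, Cyp2c65, Cyp2d13, Cyp2g1, Cyp2j5, Cyp2j6, Cyp2j11, Cyp2j13, Cyp2r1 and Cyp2u1.

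The study asked how hormones, gonads and sex chromosomes each contribute to sex differences in tissue transcripts. All mice were of the FCG model on a C57BL/6J background, in which Sry is missing from the Y chromosome and may be present as an autosomal transgene. XX and XY- mice carried no Sry and formed ovaries, while XXSry and XY-Sry mice carried the transgene and formed testes. Every mouse, controls included, lost its gonads at 75 days of age and at the same surgery received a capsule that was blank (B), held 5 mM testosterone (T) or held 50 µg estradiol (E), and tissue was taken 3 weeks later. The 4 genotypes and 3 capsules made 12 groups per tissue, with 5 arrays each in liver (60 in all) and 3 to 5 in adipose tissue (55 in all). The gonad contrast therefore compares mice that had testes or ovaries until surgery, and it cannot separate that history from presence of the transgene itself. The labels do not say whether each array came from a separate animal, so p-values measure the spread between these arrays.

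Cyp2 enzymes are haem proteins of the endoplasmic reticulum that insert oxygen into steroids, fatty acids, vitamins, drugs and toxicants, using electrons passed on by the reductase Por. In rodent liver many of them are expressed at different levels in males and females. The sex difference is known to follow the pulsatile or continuous pattern of pituitary growth hormone, read by STAT5 together with HNF4A, and gonadal hormones act on that pattern.

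The median raw signal of an array was 124 to 159 in liver and 130 to 230 in adipose tissue, and 31.8% to 41.0% and 40.3% to 49.0% of probes were detected. All 9 measured hepatocyte markers were present on every liver array, and 6 of 7 white adipocyte markers on every adipose array. The adipose arrays also held signal of other tissues in varying amounts. The summed signal of 8 skeletal muscle markers was 907 to 167825 (median 80014), against a median of 39116 for the white adipocyte markers. That of 8 lymph node markers was 277 to 45796. Single liver arrays stood apart from their labels. XY-Sry T replicate 5 had Xist at 6.63 and Eif2s3y at 4.53 (log2 level), inside the XX ranges and outside those of the other XY arrays. XY- E replicate 5 had the male-biased steroid enzyme Hsd3b5 at 12.26, inside the testosterone range of 11.15 to 12.95, while the other estradiol arrays reached 11.19. The estradiol array at 11.19 thus also lay just inside the testosterone range, and the next was at 10.25. It was not treated as doubtful. With both arrays left out, 17 rather than 18 probes passed for testosterone and 3 rather than 4 for estradiol in liver. For adipose XX E replicate 1 the label fields name different hormones. It was kept as estradiol. Its Cyp2f2 level of 9.44 cannot decide the label, since Cyp2f2 is a member and this array helps set the estradiol range. With the array taken as testosterone, Cyp2f2 kept its adipose estradiol call. It lost those for testosterone and for gonad type with blank capsules or estradiol.

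In liver, testosterone against blank changed members of 6 subfamilies, Cyp2a, Cyp2c, Cyp2d, Cyp2f, Cyp2g and Cyp2u. Of 31 probes 18 passed (58.1%), against 19.1% of all probes (limma, adjusted p under 0.05 over all 11317 tested probes), 5 of them higher and 13 lower. By gene, Cyp2d9, Cyp2u1, Cyp2d13, Cyp2d10 and Cyp2f2 rose, and 9 genes of the Cyp2a, Cyp2c, Cyp2d and Cyp2g subfamilies fell on at least 1 probe. The median difference was -0.17 over the family's probes and 0.00 over all probes. After median centring, in place of quantile normalisation, the split was 2 higher and 12 lower. Testosterone and estradiol were compared with the same blank arrays. Slides each lacked at least 1 capsule type, so differences within slides are given beside the main results. Of the markers of other cells, Csf1r and Lyzs of the 4 macrophage markers fell by 0.37 and 0.58 with testosterone. Cd79b of 3 tested lymph node markers fell by 0.66. Of 2 tested brown adipocyte markers Elovl3 rose and Ppargc1a fell. Of 5 tested epithelial markers Cdh1 rose and 1600023A02Rik fell. The part of these markers in the Cyp2 differences was not tested.

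**Figure D1:**
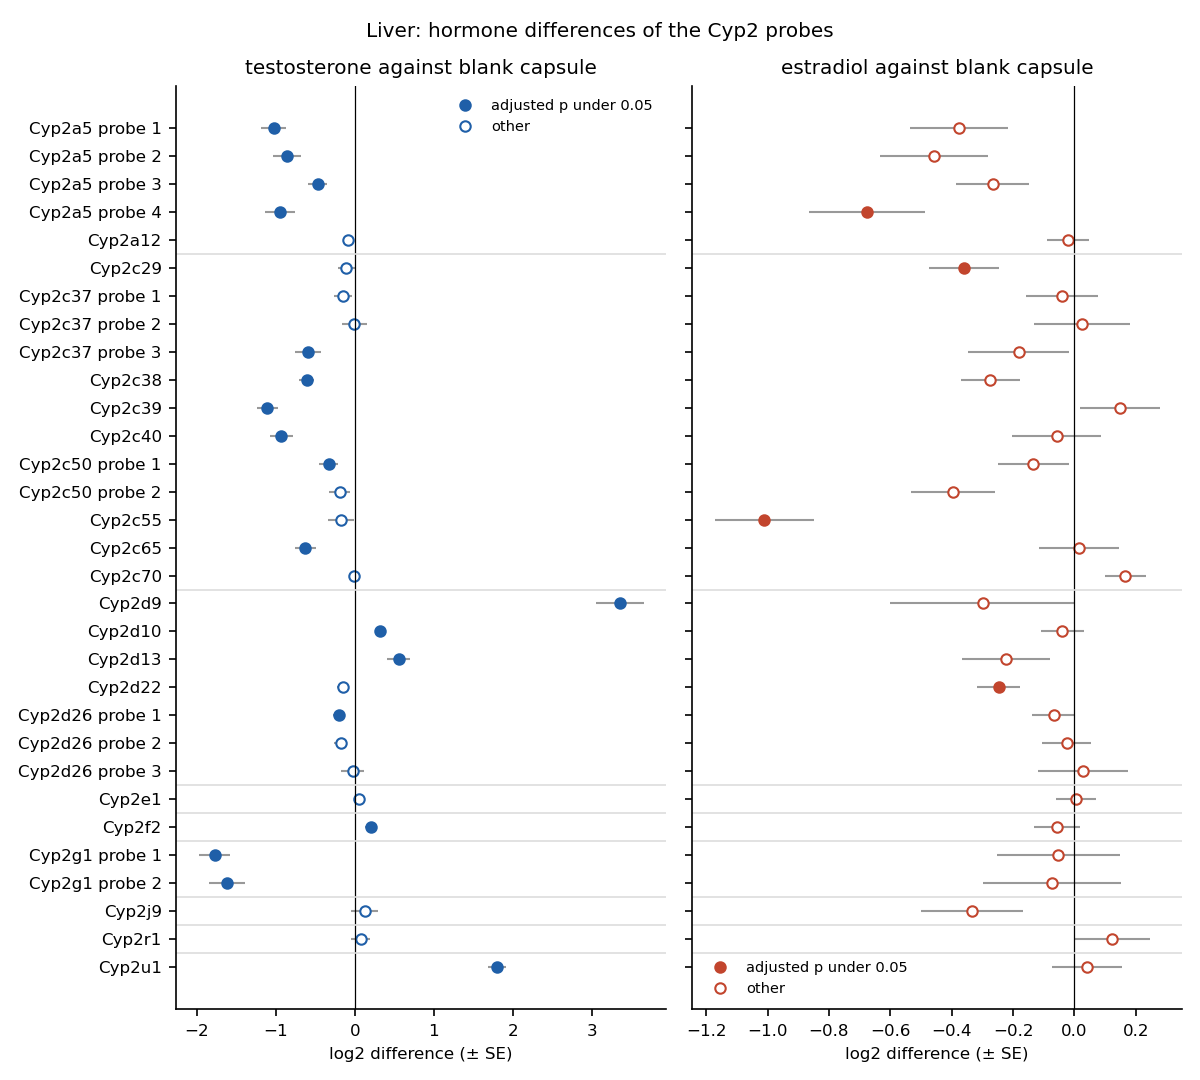
Log2 difference (± SE) of each tested Cyp2 probe in liver for testosterone (left) and estradiol (right) against the blank capsule, with filled points for adjusted p under 0.05 and probes of a gene numbered by their mean level. The panels differ in the scale of their axes. Cyp2d9 (3.35) and Cyp2u1 (1.79) stand to the right for testosterone and Cyp2g1 (-1.77) to the left, and for estradiol Cyp2c55 (-1.01) is the lowest.

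Cyp2d9, a testosterone hydroxylase known from the liver of male mice, had the largest rise. On the 20 blank arrays its log2 level had a lowest value of 6.83, a median of 10.01 and a highest of 11.44. On the 20 testosterone arrays these were 12.06, 12.87 and 13.55. The arms did not overlap. On the estradiol arrays the values ran from 6.11 through 9.75 to 12.87, across most of both other ranges. Testosterone raised Cyp2d9 by 3.35 ± 0.30 (SE), 10.2-fold (limma, adjusted p = 2.78e-13), in all 4 genotypes, and by 2.99 to 3.48 within the 3 slides that held both capsules. Estradiol against blank differed by -0.30 with a 95% interval of -0.90 to 0.30, and did not pass (limma, adjusted p = 0.635).

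Cyp2d9 was also higher in mice that had carried testes, unless they received testosterone. Of 31 probes 2 passed for gonad type, both higher (6.45%, against 3.4% of all probes), and these were Cyp2d9 and Cyp2c55. Cyp2d9 differed by 1.57 ± 0.25 over all capsules (limma, adjusted p = 7.4e-06) and was higher within 8 of 8 slides, by 0.34 to 3.05. With blank capsules the 10 arrays without Sry lay between 6.83 and 9.59 (median 8.03) and the 10 Sry arrays between 10.44 and 11.44 (median 10.72). These ranges did not overlap. The difference was 2.89 ± 0.43, 7.40-fold (limma, adjusted p = 5.72e-06).

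With testosterone the medians were 12.80 without Sry and 12.95 with it, over overlapping ranges, and the difference was 0.06 (95% interval -0.79 to 0.92). The difference of the testosterone effects between the gonad types was -2.82 ± 0.60 (limma, adjusted p = 0.0162). It was the 1 of 31 probes that passed this interaction (3.23%, against 0.124% of all probes). The call was lost with median centring (adjusted p = 0.0885) and with no filter on dim probes (0.0584). With estradiol Cyp2d9 was 1.77 ± 0.43 higher in the Sry arrays (limma, adjusted p = 0.0089). Here the 2 groups overlapped, since XY- E held values of 7.17, 11.30, 6.64, 7.31 and 12.87. The array at 12.87 is the one with the high Hsd3b5, and the one at 11.30 had Hsd3b5 at 7.50. Leaving out single arrays gave differences of 1.46 to 2.24.

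By group, mean Cyp2d9 with blank capsules was 7.99 ± 1.13 (SD, n = 5) in XX, 8.02 ± 0.75 in XY-, 10.86 ± 0.50 in XXSry and 10.92 ± 0.39 in XY-Sry mice. Genotypes with the same gonad type differed by less than their SDs. With testosterone the means were 12.70 ± 0.53, 12.83 ± 0.21, 12.83 ± 0.51 and 12.84 ± 0.25 in the same sequence of genotypes. With estradiol they were 7.47 ± 0.76, 9.06 ± 2.83, 10.46 ± 0.47 and 9.60 ± 0.78. The wide SD of XY- E comes with its arrays at 11.30 and 12.87.

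**Figure D2:**
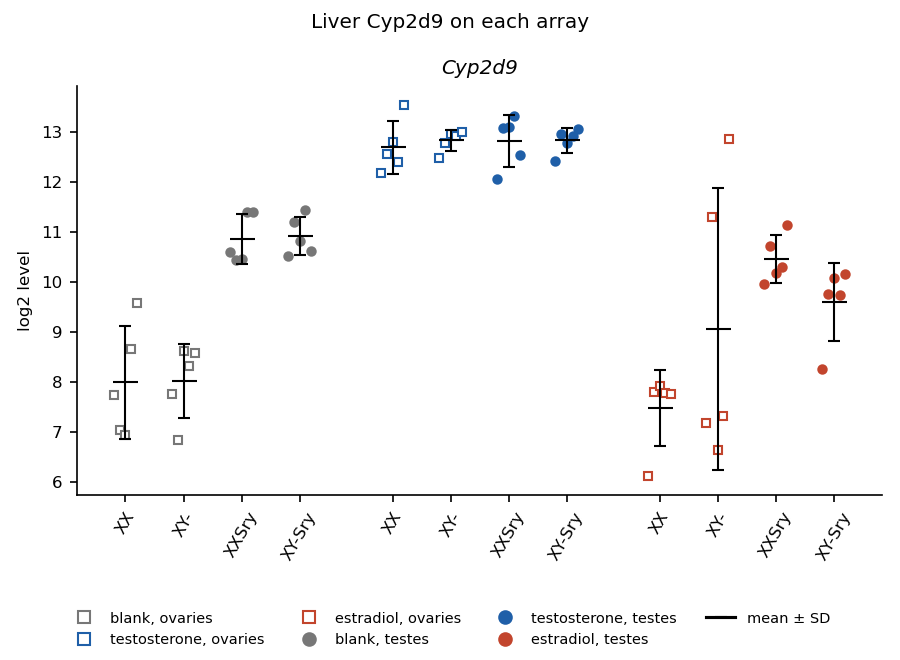
Log2 level of Cyp2d9 on each of the 60 liver arrays by genotype and capsule, with the mean ± SD of each group; squares are mice that formed ovaries and circles mice that formed testes. All testosterone arrays lie at 12.06 or above, and among blank arrays the Sry groups (10.44 to 11.44) lie above the groups without Sry (6.83 to 9.59).

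Other Cyp2d genes moved less. Cyp2d10, the neighbour of Cyp2d9, had a median of 12.92 on blank and 13.27 on testosterone arrays, with ranges of 12.45 to 13.19 and 12.78 to 13.53 that overlapped. It rose by 0.32 ± 0.07 (limma, adjusted p = 0.000513). Cyp2d13, which RefSeq lists as a transcribed pseudogene, rose by 0.55 ± 0.15 (limma, adjusted p = 0.00406) and was detected on 20 of 20 testosterone and 16 of 20 blank arrays. With median centring these last rises no longer passed, at adjusted p of 0.213 and 0.1 (limma). Cyp2d26 fell on 1 of its 3 probes, by 0.20 (limma, adjusted p = 0.0375), a call that a fit with slide as a block did not keep and that was lost on leaving out any 1 of 15 arrays. The slide fit called another Cyp2d26 probe lower instead (-0.35; limma, adjusted p = 0.00221), at -0.03 in the main fit. A fit with array weights called the remaining probe lower (-0.23; limma, adjusted p = 0.00742), at -0.18 in the main fit. Cyp2d22 differed by -0.15 and did not pass (limma, adjusted p = 0.133).

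Cyp2d9 and Cyp2d10 rose together by very different amounts, so the 250 bases before their starts are shown (RefSeq, GRCm38.p6; the build behind the array's probes is not given in the sources used here). They lie at chr15:82452127-82452376 on the plus strand and at chr15:82407195-82407444 on the minus strand. In a global alignment 209 positions were the same, 37 were mismatched and 8 were gaps, an identity of 85.0% of the aligned bases, against 63.8% between Cyp2d9 and Cyp2d26. Capitals mark bases that differ or are unaligned between the pair.
Cyp2d9: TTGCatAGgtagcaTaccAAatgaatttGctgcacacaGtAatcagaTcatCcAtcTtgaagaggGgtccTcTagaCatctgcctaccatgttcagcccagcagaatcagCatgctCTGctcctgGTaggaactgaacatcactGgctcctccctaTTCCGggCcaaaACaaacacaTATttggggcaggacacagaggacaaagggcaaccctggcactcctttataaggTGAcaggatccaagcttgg
Cyp2d10: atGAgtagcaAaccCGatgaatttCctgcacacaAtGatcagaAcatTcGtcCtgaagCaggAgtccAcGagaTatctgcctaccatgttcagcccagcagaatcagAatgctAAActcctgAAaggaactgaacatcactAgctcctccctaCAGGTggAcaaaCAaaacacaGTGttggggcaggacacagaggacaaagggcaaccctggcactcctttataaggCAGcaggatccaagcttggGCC
The growth hormone factor STAT5 is known to bind TTCNNNGAA, searched on both strands in windows of 300 bases (250 before to 50 after a start). Neither window holds these letters, which are in 1 of 25 windows of the family (that of Cyp2j11) and in 8.3% of all 32851 windows. No windows were found for Cyp2d13, Cyp2d22, Cyp2g1 and Cyp2u1. Whether the Cyp2d probes also read their near relatives was not tested. RefSeq places 8 coding Cyp2d genes side by side on chromosome 15, of which 4 are members here.

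Cyp2u1, a fatty acid hydroxylase, was near background without testosterone. It was detected on 2 of 20 blank arrays (4.45 to 5.64, median 4.78), on 1 of 20 estradiol arrays (4.51 to 6.34, median 4.80) and on 20 of 20 testosterone arrays (6.08 to 7.36, median 6.65). Testosterone and blank arrays did not overlap. Cyp2u1 rose by 1.79 ± 0.11 (limma, adjusted p = 4.91e-19), in all 4 genotypes and by 1.60 to 1.96 within 3 slides. The estradiol array at 6.34 is XY- E replicate 5, and the next highest of that group was 4.81. Most blank arrays were not above background, so no fold is given, and without background correction the difference of this dim probe was 0.59. Cyp2u1 differed by 0.16 between the gonad types (limma, adjusted p = 0.582).

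Cyp2g1, a steroid hydroxylase known from the olfactory lining, had the largest fall. On its brighter probe the blank arrays ran from 7.26 to 9.14 (median 7.87), the estradiol arrays from 5.56 to 8.96 (median 8.27) and the testosterone arrays from 4.97 to 7.78 (median 6.30). Testosterone and blank arrays overlapped at the edges of their ranges. It fell by 1.77 ± 0.20 (limma, adjusted p = 5.71e-10), 3.42-fold, and by 1.61 on its other probe, in all 4 genotypes on both. Within 3 slides the differences were -2.31 to -1.49. Without background correction the 2 probes differed by -0.92 and -0.72, and the largest fall was then that of a Cyp2a5 probe (-1.01). For estradiol the brighter probe differed by -0.05 (95% interval -0.45 to 0.35).

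Group means of Cyp2g1 with blank capsules were 8.28 ± 0.67 (SD, n = 5) in XX, 8.54 ± 0.25 in XY-, 7.94 ± 0.43 in XXSry and 7.55 ± 0.25 in XY-Sry mice. With testosterone they were 6.87 ± 0.78, 6.49 ± 0.38, 5.77 ± 0.47 and 6.10 ± 0.74, and with estradiol 7.85 ± 1.32, 7.50 ± 0.96, 8.46 ± 0.54 and 8.29 ± 0.35. The Sry means were lower with blank and testosterone capsules and higher with estradiol. None of these gonad differences passed, and the interaction of estradiol with gonad type was 1.36 ± 0.40 (limma, adjusted p = 0.23).

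**Figure D3:**
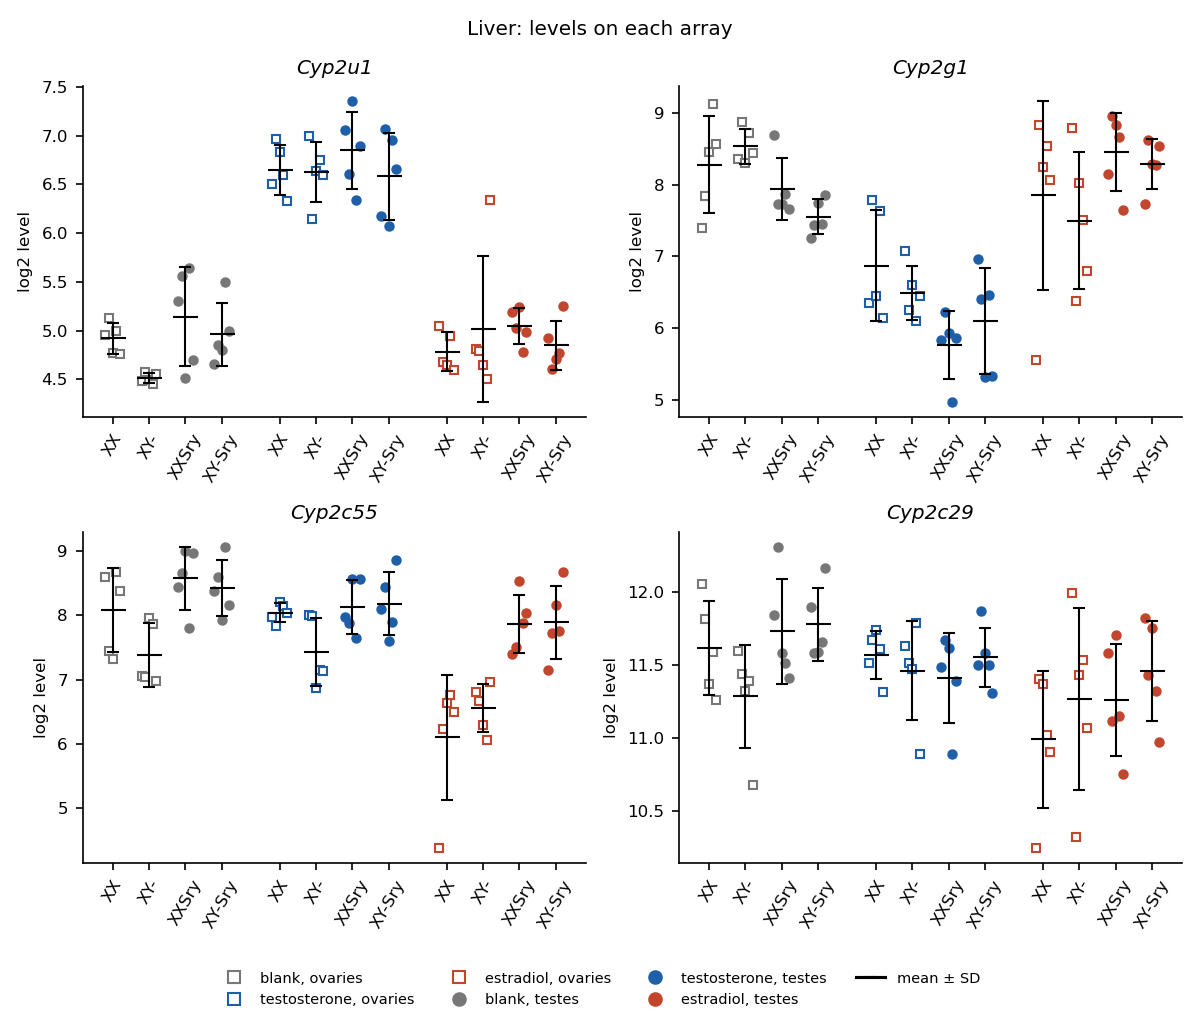
Log2 levels of Cyp2u1, Cyp2g1, Cyp2c55 and Cyp2c29 on each liver array by genotype and capsule, with the mean ± SD of each group; squares are mice that formed ovaries and circles mice that formed testes. Testosterone arrays are high for Cyp2u1 (6.08 to 7.36) and low for Cyp2g1 (4.97 to 7.78), and for Cyp2c55 the estradiol arrays without Sry (4.39 to 6.96) lie below those with it (7.15 to 8.67).

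In the Cyp2a subfamily all 4 probes of Cyp2a5, the mouse coumarin hydroxylase, fell with testosterone, by 0.47 to 1.02. Its brightest probe had medians of 14.21 on blank and 13.21 on testosterone arrays, with overlapping ranges, and fell by 1.02 ± 0.16 (limma, adjusted p = 1.94e-06). Cyp2a12, another steroid hydroxylase, differed by -0.08 ± 0.07 and did not pass (limma, adjusted p = 0.446). For estradiol only the dimmest of the Cyp2a5 probes passed, at -0.68 ± 0.19 (limma, adjusted p = 0.0195). This call was lost with array weights (limma, adjusted p = 0.0697), and over the alternatives the difference ran from -0.86 to -0.37. The other 3 differed by -0.46 to -0.27 with adjusted p of 0.11 to 0.186.

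The Cyp2c subfamily, which makes epoxides and alcohols from arachidonic acid, fell on 6 of 12 probes with testosterone and rose on none. Cyp2c39 was detected on 14 of 20 blank, 16 of 20 estradiol and 0 of 20 testosterone arrays, with ranges of 5.30 to 6.57, 4.76 to 6.75 and 4.47 to 5.26. Its blank and testosterone arrays did not overlap, and the estradiol array at 4.76 is XY- E replicate 5. The fitted difference was -1.11 ± 0.13 (limma, adjusted p = 1.6e-09). As testosterone levels were not well above background, the fall is a bound of at least 1.21-fold against blank and at least 1.34-fold against estradiol, set against the lowest signals detected on those arrays.

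Cyp2c40, which hydroxylates arachidonic acid, fell by 0.93 ± 0.14 (limma, adjusted p = 2.16e-06), from a median of 6.68 to 5.63 with overlapping ranges. Cyp2c65 fell by 0.63 (limma, adjusted p = 0.000313), and was detected on 12 of 20 blank and 2 of 20 testosterone arrays. Cyp2c38 had a fitted difference of -0.61 (limma, adjusted p = 3.64e-06) but was detected on only 7 of 20 blank and 0 of 20 testosterone arrays, so no fold is given. Cyp2c37 fell on its dim probe by 0.59, while its bright probes differed by -0.15 and -0.01. Without background correction these calls were kept but the differences of the dim probes shrank, to -0.32 for Cyp2c39, -0.34 for Cyp2c40, -0.18 for Cyp2c65, -0.18 for Cyp2c38 and -0.20 for Cyp2c37. Cyp2c50 fell by 0.33 on 1 of 2 probes (limma, adjusted p = 0.0375), and this call was lost on leaving out any 1 of 13 arrays. Cyp2c29, Cyp2c55 and Cyp2c70, the muricholic acid enzyme, differed by -0.10, -0.17 and -0.01 and did not pass.

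HNF4A, a liver nuclear receptor, is known to bind CAAAGTCCA. On both strands these letters are in the windows of Cyp2c40, Cyp2c65 and Cyp2c70, 3 of the family's 25, and in 0.475% of all windows. Cyp2c40 and Cyp2c65 fell with testosterone and Cyp2c70 did not pass. The windows of Cyp2c40 and Cyp2c65 are shown (RefSeq, GRCm38.p6), at chr19:39812815-39813064 on the minus strand and chr19:39060756-39061005 on the plus strand, with the match in capitals. It begins 45 and 116 bases before the start.
Cyp2c40: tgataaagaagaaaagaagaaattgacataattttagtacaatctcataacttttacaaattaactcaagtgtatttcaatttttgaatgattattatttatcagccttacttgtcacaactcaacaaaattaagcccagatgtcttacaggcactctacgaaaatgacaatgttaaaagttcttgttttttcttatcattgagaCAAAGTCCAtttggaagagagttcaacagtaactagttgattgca
Cyp2c65: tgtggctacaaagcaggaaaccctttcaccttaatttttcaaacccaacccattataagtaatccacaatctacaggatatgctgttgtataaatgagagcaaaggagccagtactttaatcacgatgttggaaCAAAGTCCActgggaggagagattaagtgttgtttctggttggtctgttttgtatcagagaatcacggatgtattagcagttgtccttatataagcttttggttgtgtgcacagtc
The match is a description of these letters, and binding was not measured. All 9 Cyp2c members lie among 15 coding Cyp2c genes on chromosome 19, and reading of relatives by their probes was not tested.

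The remaining genes in liver changed little. Cyp2f2, which activates naphthalene, rose by 0.20 ± 0.08 with testosterone (limma, adjusted p = 0.0491), and this call was lost on leaving out any 1 of 43 arrays. Cyp2e1, which oxidises ethanol and small solvents, differed by 0.05 (95% interval -0.08 to 0.19). Cyp2j9 differed by 0.12, and the vitamin D hydroxylase Cyp2r1 by 0.08, without passing.

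Estradiol changed fewer Cyp2 probes in liver, all of them downward. Of 31 probes 4 passed (12.9%, against 6.82% of all probes), from Cyp2c55, Cyp2c29, Cyp2d22 and Cyp2a5. The median difference was -0.07 over the family and -0.02 over all probes. With median centring 8 passed, all lower, while the median of all probes moved to -0.18. In bulk tissue fewer cells of a type and less RNA per cell cannot be told apart. All 4 macrophage markers rose with estradiol in liver (summed signal 828 to 6858 on blank and 1326 to 7781 on estradiol arrays), 0 of 9 hepatocyte markers passed (limma; 0 at unadjusted p under 0.05), and the part of the macrophage markers in these differences was not tested.

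Cyp2c55, an inducible arachidonic acid hydroxylase, fell by 1.01 ± 0.16 (limma, adjusted p = 2.64e-05), 2.01-fold, in all 4 genotypes and by 0.66 to 1.32 within 2 slides. Blank arrays ran from 6.99 to 9.06 (median 8.27) and estradiol arrays from 4.39 to 8.67 (median 7.05), with overlap. Without background correction it differed by -0.57. The estradiol arrays separated by gonad type. Among estradiol arrays the 10 without Sry lay between 4.39 and 6.96 (median 6.56) and the 10 with Sry between 7.15 and 8.67 (median 7.82), without overlap.

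Over all capsules Cyp2c55 was 0.91 ± 0.13 higher in the Sry groups (limma, adjusted p = 1.43e-06), and higher within 8 of 8 slides by 0.39 to 1.63. The difference was 1.55 ± 0.23 with estradiol (limma, adjusted p = 8.11e-06), 0.77 with blank capsules (0.0712) and 0.42 with testosterone (1). The difference with blank capsules passed in some alternatives. It was 0.50 without background correction, 0.77 with slide as a block and 0.85 with array weights (limma, adjusted p of 0.0335, 0.0378 and 0.00708). The effects of estradiol were not shown to differ between the gonad types (interaction 0.78 ± 0.32; limma, adjusted p = 0.743). Group means with estradiol were 6.10 ± 0.98 (SD, n = 5) in XX, 6.56 ± 0.37 in XY-, 7.87 ± 0.45 in XXSry and 7.89 ± 0.57 in XY-Sry mice. With blank capsules they were 8.08 ± 0.65, 7.38 ± 0.49, 8.57 ± 0.49 and 8.43 ± 0.43.

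Cyp2c29, a phenobarbital-inducible enzyme, had medians of 11.59 on blank and 11.35 on estradiol arrays in overlapping ranges (10.68 to 12.31 and 10.25 to 11.99). It fell by 0.36 ± 0.11 (limma, adjusted p = 0.042). The call was lost on leaving out any 1 of 20 arrays, the sign held in 1 of 2 slides (-0.42 and 0.05), and a fit with slide as a block lost the call too (limma, adjusted p = 0.0515). Cyp2d22 fell by 0.25 ± 0.07 (limma, adjusted p = 0.0217), from a median of 12.67 to 12.48, and by 0.21 to 0.50 within 2 slides. XX E replicate 1 was the lowest estradiol array for Cyp2c55 (4.39), Cyp2d9 (6.11), Cyp2g1 (5.56) and Cyp2d22 (11.36).

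Set directly against estradiol, testosterone gave 15 of 31 called probes (48.4%, against 18.4% of all probes), 7 higher and 8 lower. With array weights 21 passed, 7 higher and 14 lower, and these included all 15. With slide as a block 12 of the 15 were kept, without the Cyp2a5 probe (-0.48, adjusted p = 0.0789), Cyp2c70 (-0.19, 0.0906) and Cyp2j9 (0.22, 0.475; limma). Cyp2d9 was higher by 3.65, Cyp2c55 by 0.84, Cyp2d13 by 0.78, Cyp2j9 by 0.46, Cyp2d10 by 0.36 and Cyp2f2 by 0.26. Cyp2u1, detected on 1 of 20 estradiol arrays, had a fitted difference of 1.75 (0.57 without background correction). Cyp2g1 was lower by 1.72 and 1.54 on its probes. Cyp2c39, Cyp2c40, Cyp2c65, Cyp2c38 and Cyp2c70 and 1 of 4 Cyp2a5 probes were lower too. The difference of Cyp2c70, -0.18 (limma, adjusted p = 0.0498), was lost on leaving out any 1 of 42 arrays, and that of Cyp2j9 (adjusted p = 0.0442) with any 1 of 22.

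In the main fit, gonad type within a capsule was called most often with estradiol in liver. There 4 of 31 probes passed, all higher with Sry (12.9%, against 2.44% of all probes). Besides Cyp2d9 and Cyp2c55 these were Cyp2c65, by 0.73 (limma, adjusted p = 0.0137), and Cyp2f2, by 0.39 (0.0306). Cyp2c65 was lost without XX E replicate 1 (0.63, adjusted p = 0.0602). Cyp2f2 was lost without XY-Sry E replicate 2, XXSry E replicate 1, XY- E replicate 2 or XX E replicate 1 (0.26 to 0.37). Over all capsules the 4 macrophage markers were lower in the Sry groups of liver (summed signal 608 to 4677 against 852 to 7781). Of all liver probes 3.4% passed for gonad type. The part of these markers was not tested.

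With blank capsules 2 of 31 probes passed for gonad type (1.75% of all probes), Cyp2d9 upward and Cyp2c40 downward. Cyp2c55 passed there only in some alternatives. Cyp2c40 was lower with Sry by 0.75 ± 0.21 (limma, adjusted p = 0.036). Its 10 arrays without Sry ran from 6.15 to 7.30 (median 7.21) and its 10 Sry arrays from 5.86 to 6.78 (median 6.17), with overlap, and the call was lost on leaving out any 1 of 12 arrays. With testosterone 0 of 31 passed (limma; 7 had unadjusted p under 0.05; 0.212% of all probes). The interaction of estradiol with gonad type passed for 0 of 31 (limma; 8 at unadjusted p under 0.05; 0.0795% of all probes). The lowest adjusted p there were 0.0968 for Cyp2c65 (1.02) and 0.13 for Cyp2c40 (1.06).

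Sex chromosomes gave 0 called probes of 31 in liver (limma; 1 at unadjusted p under 0.05; 0.186% of all probes) and 0 of 18 in adipose tissue (limma; 2 at unadjusted p under 0.05; 0.137% of all probes). For Cyp2d9 in liver XX minus XY groups was -0.16 (95% interval -0.65 to 0.33), and for Cyp2f2 in adipose tissue it was 0.30 (0.02 to 0.58; limma, adjusted p = 0.49).

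In adipose tissue, estradiol lowered or raised a few Cyp2 genes. Of 18 probes 4 passed (22.2%, against 20.5% of all probes, a share near the background), with Cyp2f2, Cyp2j9 and Cyp2d22 lower and Cyp2s1 higher. The median difference over the 18 probes was -0.07. With median centring 2 of 18 passed, since Cyp2j9 and Cyp2d22 were lost.

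Cyp2f2 had the largest difference of the family in this tissue. Blank arrays ran from 10.59 to 13.30 (median 12.25), testosterone arrays from 11.86 to 13.64 (median 12.51) and estradiol arrays from 7.37 to 10.13 (median 8.96). No estradiol array reached the lowest blank or testosterone array. With estradiol Cyp2f2 fell by 3.02 ± 0.17 (SE), 8.10-fold (limma, adjusted p = 8.77e-19), in all 4 genotypes, and the differences were -3.65 to -2.91 within 2 slides.

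With testosterone Cyp2f2 was 0.57 ± 0.17 higher than with blank capsules (limma, adjusted p = 0.0434). On leaving out any 1 of 20 arrays the call was lost, as it was in the fit with slides as a block (0.23), and within slides the differences were 0.00 to 1.30. Against estradiol the difference was 3.59, 12.0-fold (limma, adjusted p = 2.42e-22). Cyp2f2 is known from the club cells of the airway. Of 3 club cell markers, none was detected on any array of either tissue.

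Gonad type was called for Cyp2f2 as 1 of 18 adipose probes (5.56%, against 7.34% of all probes). It was 0.72 ± 0.14 higher in the Sry groups (limma, adjusted p = 0.000167). Within 8 of 8 slides the mean of the Sry arrays was higher, by 0.21 to 2.27. These differences within slides were not adjusted for capsule, and the mix of capsules differed between the gonad types on some slides. Slide 4 held only 2 arrays, both blank. With blank capsules the 8 arrays without Sry ran from 10.59 to 12.62 (median 11.50) and the 9 Sry arrays from 12.12 to 13.30 (median 12.65), and with estradiol from 7.37 to 9.44 (median 8.63) and 8.68 to 10.13 (median 9.56). Both pairs overlapped at their edges.

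The gonad difference was 1.05 with blank capsules (limma, adjusted p = 0.0105; 1 of 18 called, against 1.8% of all probes), and it was lost without XX B replicate 2 (0.88, adjusted p = 0.1) or XX B replicate 3 (0.98, 0.0613). It was 0.78 with estradiol (limma, adjusted p = 0.0411; 1 of 18 called, against 4.4%), and this call was lost on leaving out any 1 of 11 arrays. With testosterone it was 0.34 (adjusted p = 0.637), and 0 of 18 probes passed (limma; 0 at unadjusted p under 0.05; 3.42% of all probes). The interactions with gonad type passed for 0 of 18, both for testosterone (limma; 1 at unadjusted p under 0.05; 0.0137% of all probes) and for estradiol (limma; 2 at unadjusted p under 0.05; 0.813%).

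Group means of Cyp2f2 with blank capsules were 11.66 ± 0.85 (SD, n = 3) in XX, 11.34 ± 0.57 (n = 5) in XY-, 12.78 ± 0.35 (n = 5) in XXSry and 12.33 ± 0.23 (n = 4) in XY-Sry mice. With testosterone they were 12.54 ± 0.19 (n = 4), 12.32 ± 0.39 (n = 5), 13.00 ± 0.41 (n = 5) and 12.53 ± 0.56 (n = 5). With estradiol they were 8.61 ± 0.58 (n = 5), 8.63 ± 0.77 (n = 5), 9.57 ± 0.53 (n = 4) and 9.24 ± 0.51 (n = 5). In every genotype the estradiol mean was the lowest of the 3.

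**Figure D4:**
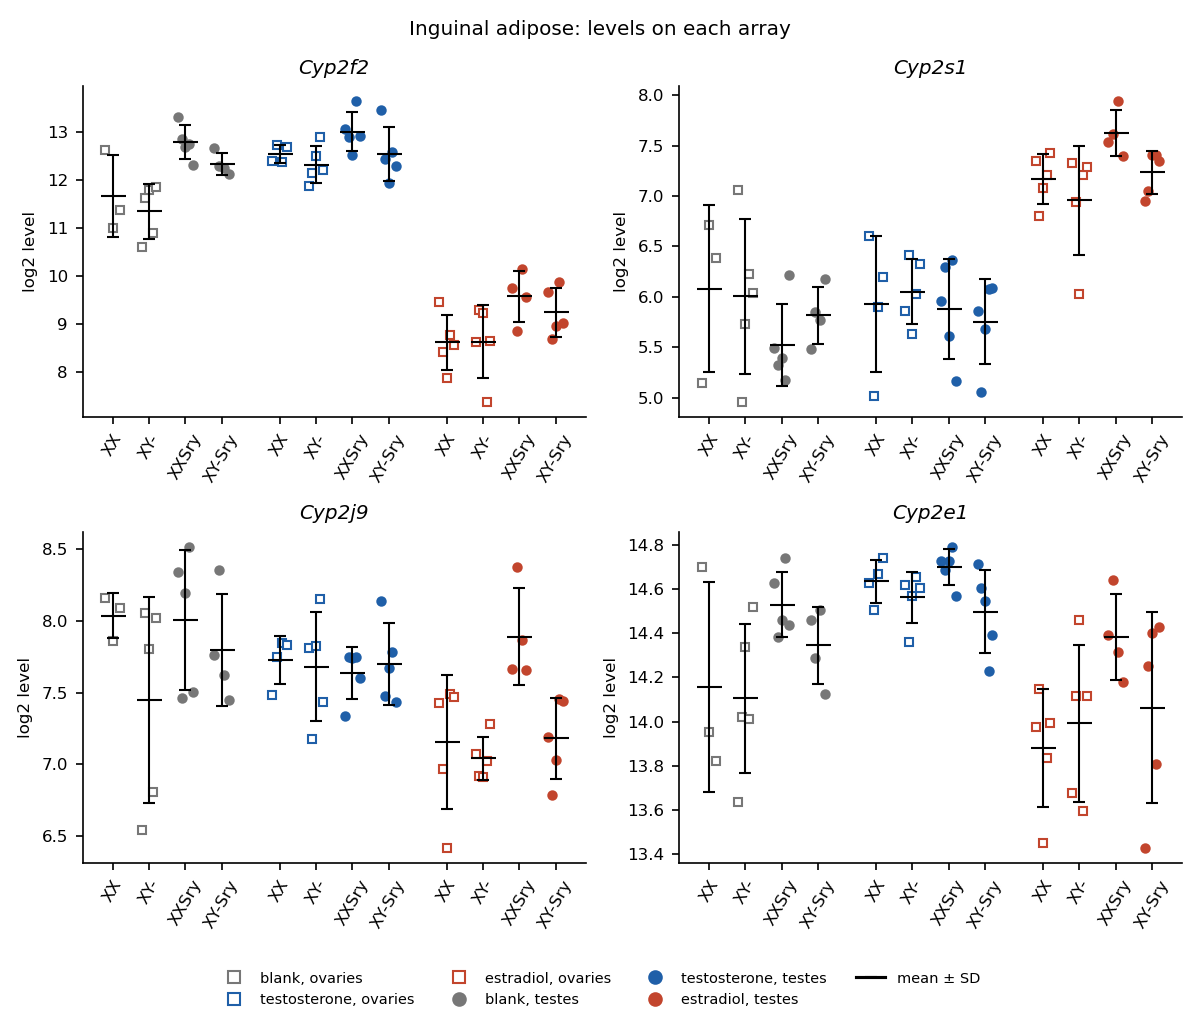
Log2 levels of Cyp2f2, Cyp2s1, Cyp2j9 and Cyp2e1 on each inguinal adipose array by genotype and capsule, with the mean ± SD of each group; squares are mice that formed ovaries and circles mice that formed testes. Estradiol arrays of Cyp2f2 (7.37 to 10.13) lie below all others, and those of Cyp2s1 (6.03 to 7.94) mostly above.

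Some markers of other cells also passed for these contrasts in adipose tissue. Of all probes 20.5% passed for estradiol and 7.34% for gonad type. With estradiol, 4 of 7 white adipocyte markers fell (Lep, Lipe, Plin and Retn), as did 4 of 4 tested brown adipocyte markers. All 4 macrophage markers rose (summed signal 2408 to 18598 on blank and 7671 to 27611 on estradiol arrays). Of 11 epithelial markers 3 rose, a share near that of all probes. In the Sry groups 3 of 7 white adipocyte markers were higher (Lep by 0.50, Lipe by 0.42 and Plin by 0.39) and 10 of 11 epithelial markers were lower, with a median difference of -3.20 and summed signals of 455 to 7917 against 5199 to 38972. The part of these markers in the differences of Cyp2f2, Cyp2s1, Cyp2j9 and Cyp2d22 was not tested. Skeletal muscle sums had medians of 88340 on blank, 98999 on testosterone and 20901 on estradiol arrays, over wide ranges that overlapped. For estradiol 0 of 8 muscle markers passed (limma; 0 at unadjusted p under 0.05). A fit with hepatocyte, skeletal muscle and lymph node marker scores as covariates kept the estradiol differences of all 4 genes: Cyp2f2 at -3.09, Cyp2s1 at 1.43, Cyp2j9 at -0.60 and Cyp2d22 at -0.55 (limma, adjusted p of 1.23e-19, 1.71e-09, 5.74e-06 and 0.000819). It kept Cyp2f2 for gonad type as well (0.63, adjusted p = 0.00034). The same fit lost the testosterone calls of Cyp2f2 (0.41, adjusted p = 0.114) and Cyp2e1 (0.25, 0.09), that of Cyp2j9 against estradiol (0.26, 0.0551) and that of Cyp2f2 for gonad type with estradiol (0.60, 0.114; limma).

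Cyp2s1, a P450 of skin and other epithelia, was the member that rose with estradiol. It was detected on 7 of 17 blank (4.96 to 7.06, median 5.77), 9 of 19 testosterone (5.01 to 6.60, median 5.96) and 18 of 19 estradiol arrays (6.03 to 7.94, median 7.32), with overlap. It rose by 1.39 ± 0.16 (limma, adjusted p = 3.87e-09), in all 4 genotypes, and by 1.34 to 1.72 within 2 slides. Without background correction the difference was 0.55. Of 11 tested epithelial markers 3 passed for estradiol, all higher, and the median difference of the 11 was 0.41. The 3 were Krt19, Krt8 and Krt7, with differences of 1.40, 1.36 and 0.84. In the Sry groups 10 of the 11 were lower, and Krt19, Krt8 and Krt7 differed by -3.84, -3.20 and -2.85. The part of epithelial markers in the rise of Cyp2s1 was not tested. Cyp2s1 differed by -0.06 between the gonad types (95% interval -0.32 to 0.20).

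Cyp2j9 fell by 0.50 ± 0.13 with estradiol (limma, adjusted p = 0.0031), from a median of 7.86 to 7.28 (ranges 6.54 to 8.52 and 6.42 to 8.38), and by 0.35 to 0.80 within 2 slides. Cyp2d22 fell by 0.46 ± 0.14 (limma, adjusted p = 0.0147), from a median of 9.91 to 9.44 (ranges 9.42 to 10.51 and 8.65 to 10.42), in 3 of 4 genotypes. Both sets of ranges overlapped, and with median centring the adjusted p were 0.117 and 0.0736 (limma). Among estradiol arrays Cyp2d22 differed by -0.54 with Sry, without passing in the main fit (limma, adjusted p = 0.129). It passed with array weights (-0.48, adjusted p = 0.0112) and with marker scores as covariates (-0.73, 0.00296; limma). Without the 3 arrays of highest hepatocyte sum it passed too (-0.54; limma, adjusted p = 0.0121).

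Testosterone gave 2 of 18 called probes in adipose tissue (11.1%, against 4.75% of all probes), Cyp2f2 and Cyp2e1, both higher. The median difference was 0.47 over the 18 probes and -0.02 over all probes. Of the 18, 13 were detected on only 3 to 14 of 55 arrays, and 8 tested hepatocyte markers had a median difference of 0.45, with 0 passing (limma; 0 at unadjusted p under 0.05). The lymph node marker Glycam1 and the brown adipocyte marker Cidea fell by 3.41 and 1.12. The part of these markers was not tested. Cyp2e1 had medians of 14.38 on blank, 14.62 on testosterone and 14.12 on estradiol arrays, with overlapping ranges. It rose by 0.31 ± 0.09 (limma, adjusted p = 0.033), by 0.17 to 0.49 within slides. The call was lost on leaving out any 1 of 6 arrays. A fit with slides as a block lost it (0.113), and so did, in an alternative chosen after seeing the data, a fit without the 3 arrays of highest hepatocyte marker sum (0.30, adjusted p = 0.0786). Cyp2f2 was lost there too (0.53, adjusted p = 0.08), which left 0 of 18 called.

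Against estradiol, testosterone gave 5 of 18 called adipose probes (27.8%, against 17.3% of all probes), with Cyp2f2, Cyp2d22, Cyp2e1 and Cyp2j9 higher and Cyp2s1 lower. Cyp2e1 was higher by 0.52 (limma, adjusted p = 1.96e-05), Cyp2d22 by 0.60 (0.00131) and Cyp2j9 by 0.37 (0.032), and Cyp2s1 was lower by 1.34. The highest testosterone array of Cyp2d22, at 12.14, was an XY-Sry one. Without the 3 arrays of highest hepatocyte sum the Cyp2d22 difference was 0.48 (limma, adjusted p = 0.000763), and that of Cyp2j9 was lost (0.33, adjusted p = 0.0719). Cyp2j9 was also lost without XXSry E replicate 1, XXSry E replicate 4 or XX E replicate 3 (0.32 to 0.35).

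The other 13 adipose probes, of Cyp2a, Cyp2c and Cyp2d genes abundant in liver, were detected on only 3 to 14 of 55 arrays. XY-Sry T replicate 1, XX T replicate 4 and XXSry B replicate 1 had all 13, and the summed signal of 9 hepatocyte markers was highest on these (137081, 55234.6 and 54088.3, with a median of 18684.5 over all adipose arrays). On the liver arrays this sum was 107197 to 141044, so XY-Sry T replicate 1 lay inside the liver range. Whether this array holds liver RNA was not tested, and it was kept in the main fit. Arrays with any of the 13 were 6 of 17 blank, 7 of 19 testosterone and 5 of 19 estradiol. For testosterone, estradiol and gonad type alike, 0 of the 13 probes and 0 of 8 tested hepatocyte markers passed (limma; 0 at unadjusted p under 0.05). Cyp2d9 was detected on 7 of 55 arrays here.

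**Figure D5:**
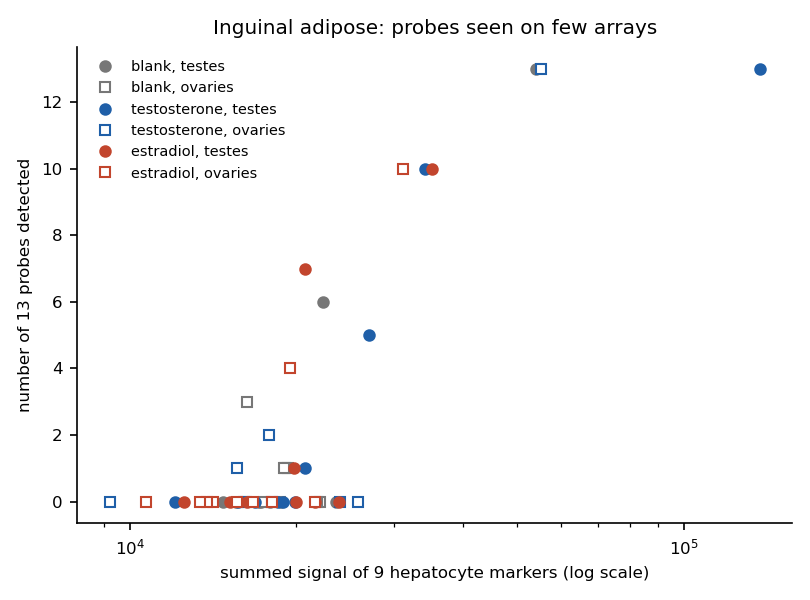
For each adipose array, how many of 13 Cyp2a, Cyp2c and Cyp2d probes were detected against the summed signal of 9 hepatocyte markers on a log axis, by capsule and gonad type. The 3 arrays with all 13 probes have the highest sums, from 54088.3 to 137081.

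Genes that serve or control these enzymes were taken from a list of 34, of which 30 were tested in liver. With testosterone 1 was higher and 8 were lower there (median -0.04), while 19.1% of all liver probes passed. Bcl6, a repressor that competes with STAT5, rose by 1.12 (limma, adjusted p = 0.00396). Cux2 (Cutl2 on the array), a repressor of male-biased genes in female liver, fell by 3.39 (limma, adjusted p = 1.12e-17). Among the others, the STAT5 targets Socs2 and Cish fell by 0.83 and 0.89, the estrogen receptor Esr1 by 1.22, the xenobiotic receptor Nr1i3 by 0.67, Ppara by 0.43 and Por by 0.31. With estradiol Stat5a rose by 0.39 and Ppara and Rxra fell by 0.63 and 0.24, while 6.82% of all probes passed. For gonad type 0 of 30 passed in liver (limma; 6 at unadjusted p under 0.05; 3.4% of all probes).

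In adipose tissue 24 of the 34 were tested. Of all probes 20.5% passed there for estradiol, 4.75% for testosterone and 7.34% for gonad type. With estradiol 5 were higher, among them Socs2 by 1.46 and the haem genes Alas1 by 0.42 and Hmox1 by 0.97, and 4 were lower, with Por falling by 0.62 (limma, adjusted p = 3.61e-05), Esr1 by 0.83, Cish by 0.71 and Cyb5b (1810044O22Rik on the array) by 0.51. With testosterone Alas1 rose by 0.43, and Esr1 and Cyb5b fell by 0.77 and 0.36. In the Sry groups 6 were higher, among them Por by 0.33, and Foxa1 was lower by 3.92, in the contrast in which the epithelial markers fell. Their part was not tested.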

How the data were processed

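Illumina expression BeadChips read total RNA of 60 liver and 55 inguinal adipose samples in 1 colour. Per the file headers, each array has deposited columns with a linear mean bead intensity per probe and the p-value of its detection. The submitters' processing notes name lumi without its role. The scanner software and the probes' genome build are not given in the sources used here, and 115 columns of bead standard errors (60 liver, 55 adipose) were not used.

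Groups and slides were taken from the labels, and replicate numbers only name arrays. Each tissue was handled in limma 3.58.1 (R 4.3.3). Intensities were corrected by normexp, which took its negative controls from the p-values of detection. After adding 16, arrays were quantile normalised on the log2 scale, and the 16 understates differences of dim probes. A mean per group was fitted over all 12 groups with lmFit and eBayes, contrasts weighted groups equally, and p-values were adjusted (Benjamini-Hochberg) over all tested probes within each of 10 contrasts. Calls have an adjusted p under 0.05, and 95% intervals use the moderated degrees of freedom. The fit of the contrasts was tested on simulated log2 levels, and the other steps were not.

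The members, lists and tests were chosen with earlier results of these data known. Values are given in every group or arm for Cyp2d9 in liver, Cyp2f2 in adipose tissue and, for testosterone, estradiol and gonad type in each tissue, the 3 called members with the largest difference (brightest probe of a gene). Other members are given by subfamily. Bounds for probes not above background compare the brighter group with the higher of the dim probe's own level and the lowest signal detected on each array. Promoters came from the RefSeq table of assembly GRCm38.p6, by symbol: 27 of 27 members matched a gene and 23 had a window. Protein sequences were not used here. Values of 1 gene of the list of P450 partners are not reported here. Alternatives were no background correction, median centring, no filter on dim probes, slide as a block, array weights, leaving out each array, doubtful labels and, in adipose tissue, marker scores of hepatocytes, skeletal muscle and lymph node as covariates.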

Additional observations from a re-analysis of the deposited data

Results flagged for a closer look

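The groups of 4 or 5 arrays of the closely described genes were searched for a highest or lowest array far from the rest of its group. Of 116 such groups 8 were marked, and chance marks about 1 in 20. In liver XX E replicate 1 was low for Cyp2c55 (4.39, the others 6.24 to 6.76), Cyp2d22 (11.36, the others 12.29 to 12.58), Cyp2d9 (6.11, the others 7.76 to 7.92) and Cyp2g1 (5.56, the others 8.07 to 8.84). Cyp2u1 was high on XY- E replicate 5 (6.34, the others 4.51 to 4.81). Cyp2d9 was low on XY-Sry E replicate 1 (8.25, the others 9.74 to 10.16). Cyp2g1 was high on XXSry B replicate 1 (8.70, the others 7.66 to 7.88), and Cyp2d22 on XX T replicate 3 (12.76, the others 12.52 to 12.58).

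The effect of testosterone on liver Cyp2d9 differed between the gonad types by -2.82 (limma, adjusted p = 0.0162). The Sry arrays were higher by 2.89 with blank capsules and by 0.06 with testosterone.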

How the results depend on the processing

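No called member reversed its sign in any alternative run: of 60 calls 38 were kept in all of them and 22 were lost in at least 1. Counts of called probes moved as follows. With median centring, liver estradiol had 8, adipose estradiol 2, adipose gonad type 2 and adipose testosterone, the liver testosterone by gonad interaction and adipose gonad type with estradiol 0. The median of all liver probes then moved to -0.18 for estradiol. With no filter on dim probes there were 1 for liver gonad type with blank capsules, 0 for the liver testosterone by gonad interaction, 1 for adipose testosterone and 0 for adipose gonad type with estradiol. With slide as a block, adipose testosterone and adipose gonad type with estradiol had 0. With array weights, adipose gonad type had 2, with estradiol 2, and adipose sex chromosomes 1. Without background correction, adipose gonad type with estradiol had 0. With XX E replicate 1 taken as testosterone, adipose testosterone and gonad type with blank capsules or estradiol had 0. With scores of other tissues as covariates adipose testosterone had 1, which was neither of the original 2 but Cyp2j9, lower (-0.33; limma, adjusted p = 0.0228). In that fit adipose gonad type with estradiol had 1, Cyp2d22 in place of Cyp2f2. Without the 3 arrays of highest hepatocyte sum, chosen after seeing the data, adipose testosterone had 0 and gonad type with estradiol 2.

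Leaving out single arrays gave 15 to 18 for liver testosterone, 3 to 5 for estradiol, 13 to 18 for testosterone against estradiol, 1 to 3 for gonad type with blank capsules, 2 to 4 with estradiol (2 without XX E replicate 1) and 0 to 1 for the estradiol by gonad interaction (1 without XX B replicate 2 or XX E replicate 3). In adipose tissue it gave 0 to 2 for testosterone, 1 to 2 for gonad type (2 without XY-Sry E replicate 1 or XX B replicate 1), 0 to 1 with blank capsules and 0 to 2 with estradiol. The labels carry no replicate numbers by which single arrays could be paired. Slide, which the labels do give, was used as a block instead. Differences of dim probes such as Cyp2u1 depend on the background and on the 16 added.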
